A study of Mus musculus with 18 samples.

Results

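The genes described here are 32 mouse genes of macroautophagy, taken by name from a fixed list, of 21631 protein-coding genes on the chromosomes that held peaks. Chromatin immunoprecipitation with sequencing for ATF4, which the integrated stress response uses to switch genes on, had been carried out on primary immature neurons of E14 mouse embryos after 2 days in culture. The 4 control lists came from untreated neurons, and the 4 2-DG lists from neurons given 10 mM 2-deoxyglucose, a glucose analogue that blocks glycolysis, for 6 h. No genotype, strain or sex was used here. The comparison asked which autophagy genes had ATF4 peaks after 2-DG and not in untreated neurons. In the labels the control samples carry no antibody name, whereas the series design names an ATF4 antibody for both treatments, so treatment and antibody cannot be told apart. The stated number of independent replicates is 3, and the 4 lists of a treatment are not tied to separate cultures, so each p-value speaks of the spread between lists, possibly a technical one.

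Macroautophagy encloses cytoplasm in a double membrane, the autophagosome, and delivers it to the lysosome. The ULK1 kinase complex starts the process, the PI3-kinase complex marks the growing membrane with a phosphorylated lipid, ATG2, ATG9 and WIPI proteins supply and place lipids, and a conjugation system attaches ATG8 proteins (LC3 and GABARAP) to that membrane. Cargo receptors bind both their cargo and ATG8 proteins. Neurons do not divide and depend on autophagy to clear aggregates and worn organelles. ATF4 often binds, as a dimer with a C/EBP protein, a composite C/EBP-ATF element, and in other cells it is known to raise transcription of several autophagy genes, among them Map1lc3b and Sqstm1.

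A peak here is an interval that the authors' caller reported in 1 list, placed at its highest summit. An end peak overlapped, by at least 1 bp, the 2000 bp on either side of either gene end, and the wide window held the gene and 20 kb beyond each end. The fold is the authors' enrichment of a peak over its local background, a ratio on each list's own scale, and its percentile is the average rank of that fold in its own list. The lists held 3461, 3784, 8202 and 6811 peaks in control replicates 1 to 4 and 15240, 7369, 6371 and 5856 in 2-DG replicates 1 to 4, and read depth is unknown. A missing peak therefore means that none was called. Nearly every peak shares its fold with others of its list, 98.9% to 99.5% of them, so the percentiles are coarse. Of 10 known ATF4 targets used as a scale (Atf3, Asns, Chac1, Ddit3, Ddit4, Sesn2, Trib3, Cebpb, Herpud1 and Vldlr), all 10 had an end peak in each of the 4 2-DG lists, and 4, 0, 1 and 0 did in the control lists. The 10 were chosen with earlier results of these data known, so their counts are no independent test.

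The promoter sequences (RefSeq, GRCm38.p6) run from 250 bases before to 50 bases after a listed transcription start. They are shown for the autophagy genes that carried a searched motif, for 2 that results below turn on, and for Chac1, the known target with the highest fold. The listed start is not always the gene start used for the peaks, and the Atg7 window (chr6:114670846-114671145) lies deep inside the gene. Table entries matched 27 of the 32 genes, in 32 windows, and left Atg12, Atg16l1, Becn1, Pik3c3 and Rb1cc1 unmatched. Capitals mark a motif on either strand. In Chac1 they mark TGATGNAA, letters of the C/EBP-ATF element (read there as TTGCATCA on the printed strand). In Atg5 they mark TGACGTCA, the cyclic AMP response element, and in Atg3 TCACGTGA, the E-box core of the element bound by Tfeb. Chac1 lies at chr2:119350992-119351291 on the + strand, Sqstm1 at chr11:50210771-50211070 on the - strand, and Map1lc3b at chr8:121590188-121590487, Atg5 at chr10:44268089-44268388 and Atg3 at chr16:45158579-45158878 on the + strand.
Chac1: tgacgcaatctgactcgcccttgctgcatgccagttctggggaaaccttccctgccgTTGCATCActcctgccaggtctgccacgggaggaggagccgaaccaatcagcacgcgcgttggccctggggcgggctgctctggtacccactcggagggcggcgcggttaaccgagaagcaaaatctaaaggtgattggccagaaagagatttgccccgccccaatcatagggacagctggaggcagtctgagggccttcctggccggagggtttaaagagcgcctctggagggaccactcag
Sqstm1: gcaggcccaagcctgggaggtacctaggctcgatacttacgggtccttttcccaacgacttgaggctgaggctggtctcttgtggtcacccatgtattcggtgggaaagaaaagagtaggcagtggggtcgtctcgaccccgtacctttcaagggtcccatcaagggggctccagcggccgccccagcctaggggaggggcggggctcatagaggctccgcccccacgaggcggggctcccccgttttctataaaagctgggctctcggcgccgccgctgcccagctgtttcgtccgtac
Map1lc3b: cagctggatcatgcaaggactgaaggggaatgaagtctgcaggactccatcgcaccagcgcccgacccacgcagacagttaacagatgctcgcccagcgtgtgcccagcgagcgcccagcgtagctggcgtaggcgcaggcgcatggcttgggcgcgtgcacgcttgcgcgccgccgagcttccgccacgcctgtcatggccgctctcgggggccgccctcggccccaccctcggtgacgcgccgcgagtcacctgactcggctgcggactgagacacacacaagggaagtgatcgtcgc
Atg5: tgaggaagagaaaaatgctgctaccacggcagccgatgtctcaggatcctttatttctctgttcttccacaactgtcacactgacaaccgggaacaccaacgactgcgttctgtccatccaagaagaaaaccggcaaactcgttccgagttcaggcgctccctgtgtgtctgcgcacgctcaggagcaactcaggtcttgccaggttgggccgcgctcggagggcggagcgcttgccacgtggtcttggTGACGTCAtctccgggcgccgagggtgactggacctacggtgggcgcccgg
Atg3: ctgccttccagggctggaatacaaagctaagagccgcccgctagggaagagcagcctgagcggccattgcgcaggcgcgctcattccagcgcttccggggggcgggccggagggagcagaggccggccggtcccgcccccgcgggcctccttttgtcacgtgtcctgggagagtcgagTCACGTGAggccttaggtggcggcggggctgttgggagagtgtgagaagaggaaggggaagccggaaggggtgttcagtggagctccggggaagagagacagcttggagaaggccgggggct

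The letters TGATGNAA were found in 0 of the 32 autophagy windows, in 6 of 11 windows of the 10 known targets (54.5%) and in 3.97% of all 32851 promoters in the table. TGACGTCA was found in 1.79% of all promoters and in 1 autophagy window, that of Atg5, from position -1 relative to the listed transcription start. TCACGTGA was found in 0.974% of all promoters and in 1 autophagy window, that of Atg3, at -72. The TGACGTCA and TCACGTGA matches do not overlap another of the 3 motifs. None of the 32 autophagy windows was touched by a peak of any of the 8 lists. These windows leave out Becn1 and Atg16l1, the 2 genes whose end peaks recurred and lay 1 to 130 bp from a gene end. Of the 11 windows of the known targets, 9 were touched by a 2-DG peak and 4 by a control peak. Sqstm1, Map1lc3b and Atg5, printed above, thus had no peak on the printed bases, whereas the Chac1 window had one in all 4 lists after 2-DG and in 1 control list.

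End peaks were few at the autophagy genes. In the 2-DG lists 3, 2, 2 and 0 of the 32 genes had one, a mean of 1.75 ± 1.26 (SD, n = 4 lists), and in each of the 4 control lists 0 did. Of all protein-coding genes, 5.64%, 3.75%, 2.43% and 2.51% had an end peak in the 2-DG lists and 1.53%, 1.26%, 2.05% and 1.91% in the control lists. The autophagy genes stood at 9.38%, 6.25%, 6.25% and 0% in the 2-DG lists, above all genes in replicates 1 to 3 and below them in replicate 4. At these shares 1 gene is 3.12% of the 32, so the gap rests on 1 or 2 genes a list. The genes with an end peak in any 2-DG list and no control list were Becn1, Atg16l1, Sqstm1 and Atg7, 4 of 32 (12.5%), beside 6.17% of all genes. No autophagy gene had an end peak in a control list and none in the 2-DG lists, against 2.85% of all genes.

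**Figure D1:**
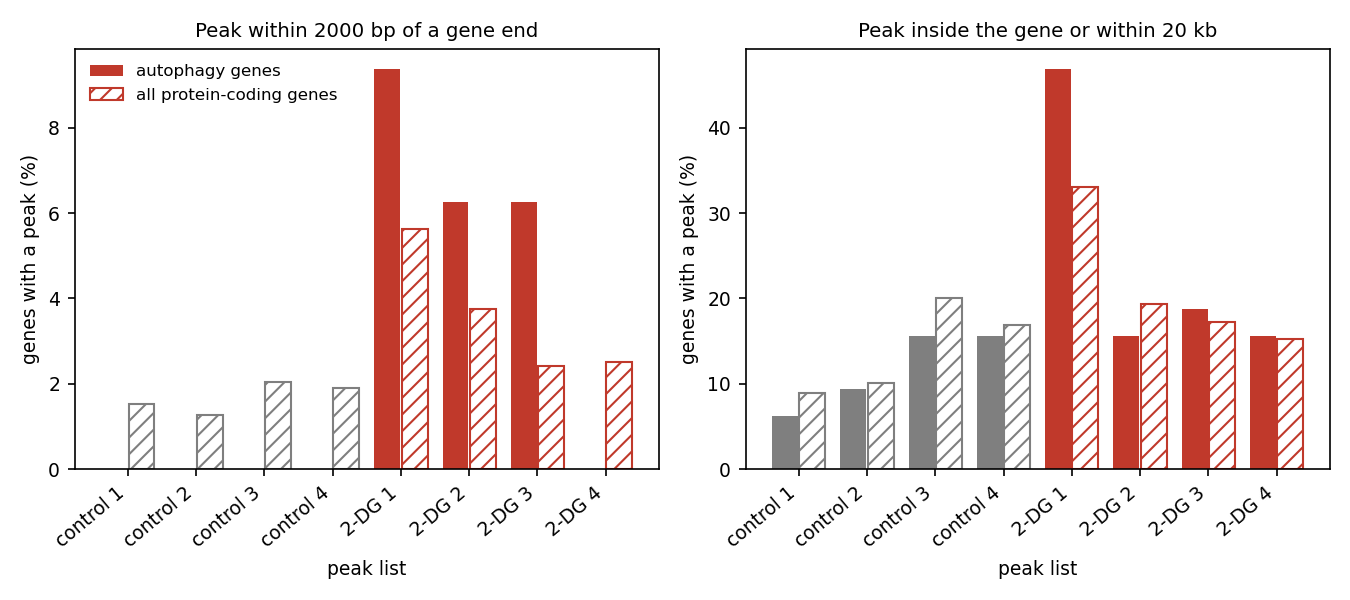
Percent of genes with a peak (y) in each of the 8 lists (x), at gene ends on the left and in the wide window on the right. Filled bars are the 32 autophagy genes and hatched bars all 21631 genes (control in grey, 2-DG in red); at gene ends the autophagy genes had 0 in the 4 controls and up to 9.38% after 2-DG, and in the wide window 2-DG replicate 1 alone reached 46.9%.

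Becn1, which encodes Beclin 1, the scaffold subunit of the PI3-kinase complex, was the member with the most end peaks. It lies at chr11:101288258-101302286 (14029 bp), and its peaks covered the higher-coordinate end (merged region chr11:101302163-101302539, 377 bp). The fold there was 8.97 in 2-DG replicate 1, 7.47 in replicate 2 and 3.91 in replicate 3, with no peak called in replicate 4 or in any of the 4 control lists. These folds were at percentiles 89.95, 81.7 and 11.1 of their lists, with -log10 q of 17.9, 11.2 and 1.5, and 3.91 was the lowest fold listed in replicate 3. The summits lay 67, 75 and 1 bp outside the gene end, so the 3 peaks overlapped one another. Replicate 1 held another peak 816 bp outside the same end, with a fold of 4.33. No other gene's end lay within 2000 bp of these summits.

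Becn1 was the 1 of 32 genes (3.12%) whose end carried a peak in 3 or more of the 4 2-DG lists and in no control list, a rule met by 245 of all genes (1.13%). No autophagy gene met it in 4 of 4 2-DG lists, as 0.573% of all genes did. The exact two-sided Fisher test of 3 of 4 against 0 of 4 lists gave p = 0.143 for Becn1, and the Benjamini-Hochberg adjusted p over 21631 genes was 1. That test cannot give a p under 0.0286 with 4 against 4 lists, a value reached by 124 genes and by 0 of the 32, and 0 genes passed an adjusted 0.05. Among the genes that met the rule, Becn1 had a fold below the median in the 3 lists where it had a peak: 159 of the 244 with an end peak in replicate 1 had a higher one, as did 136 of 241 in replicate 2 and 130 of 147 in replicate 3. Leaving out replicate 1, 2 or 3 of the 2-DG lists, with a peak then needed in all 3 remaining, left 0 members under the rule. Becn1 had its end peaks in those same lists, so this 0 was fixed beforehand.

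Atg16l1 encodes the protein that directs the conjugation enzyme to the growing membrane. It lies at chr1:87756007-87792428, and its end region (chr1:87755806-87756006) was outside the lower-coordinate end. The fold was 6.50 in 2-DG replicate 1 (percentile 81.7) and 4.98 in replicate 2 (percentile 57.6), with summits 113 and 130 bp from the gene end. No end peak was called in 2-DG replicates 3 and 4 or in the control lists, and Fisher's exact p was 0.429 (adjusted p = 1). Control replicate 1 had a peak 9506 bp outside the same end, with a fold of 3.64, so in the wide window Atg16l1 had peaks in both treatments. The 2 end peaks of Atg16l1 and the 3 of Becn1 around their gene ends were the end regions found in more than 1 of the 8 lists, and the other 3 end regions were in 1 list.

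Sqstm1 and Atg7 each had an end peak in 1 list. Sqstm1, at chr11:50200152-50210820 on the - strand, encodes p62, a receptor for ubiquitinated cargo. Its peak in 2-DG replicate 1 (chr11:50212119-50212220) had a fold of 3.71, at percentile 19.8, with the summit 1379 bp upstream of the gene start and so outside the promoter window printed above. Atg7, at chr6:114643127-114860604 on the + strand, encodes the enzyme that activates both ATG12 and the ATG8 proteins. Its end peak, in 2-DG replicate 3 with a fold of 4.40 (percentile 31.6), lay 1467 bp inside the 3′ end, where an end of Vgll4 is also within 2000 bp. The same list held peaks deeper inside Atg7 with folds of 3.91 and 5.38, and control replicate 1 held one 17777 bp upstream with a fold of 4.36. Both end peaks were absent from the other 7 lists, and Fisher's exact p was 1 for each gene.

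**Figure D2:**
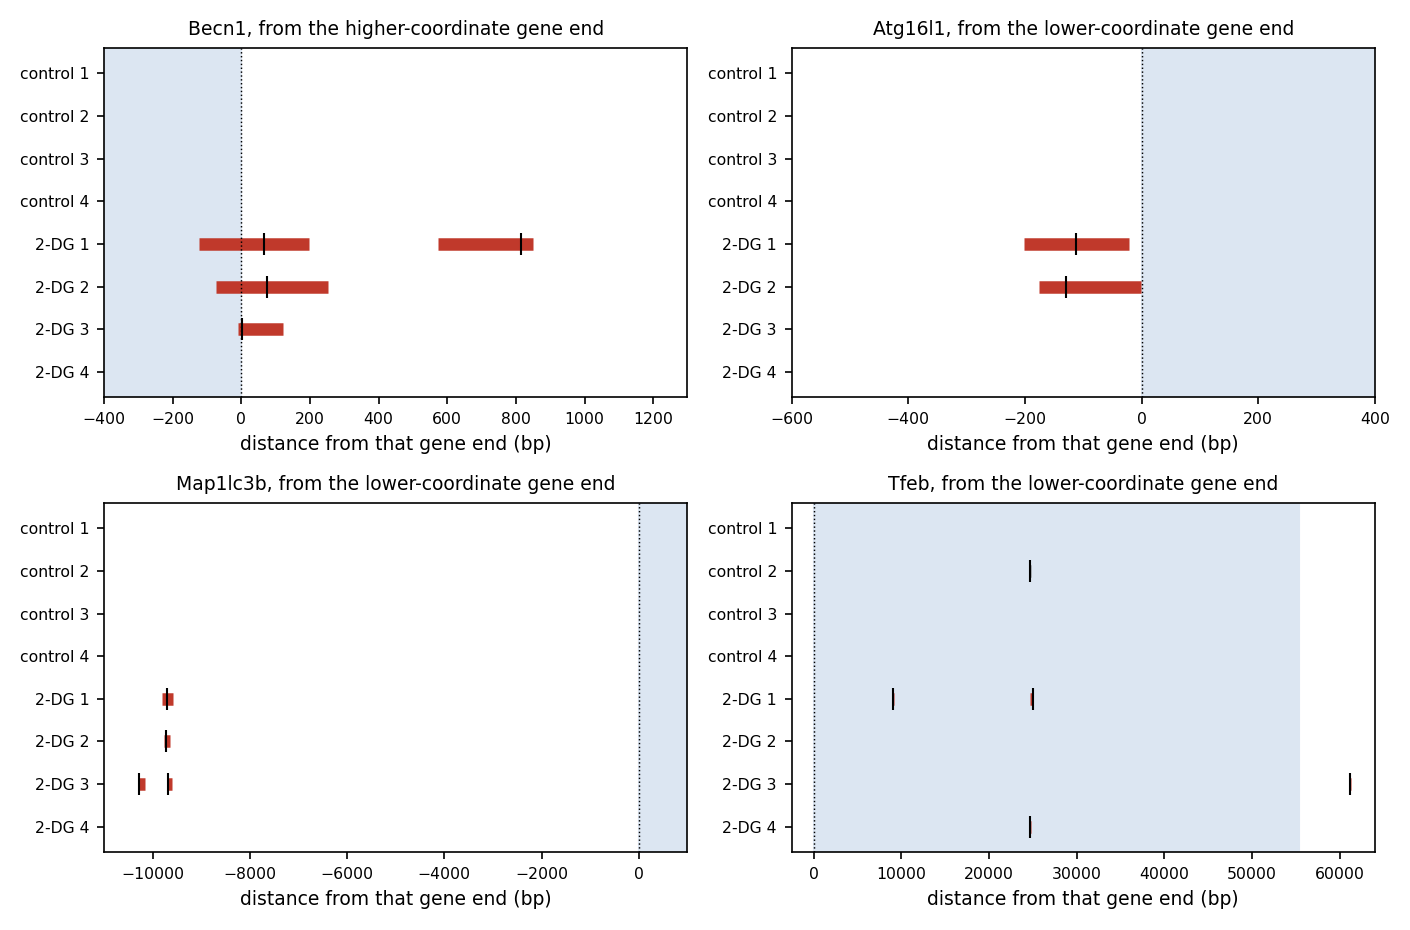
Peak intervals (bars, control in grey and 2-DG in red) and highest summits (black ticks) in each of the 8 lists (rows). The x axis is the distance in bp from a gene end, with the gene shaded, for Becn1, Atg16l1, Map1lc3b and Tfeb. The Atg16l1 panel shows the surroundings of the gene end alone, so the control replicate 1 peak 9506 bp away is not drawn. The Becn1 and Atg16l1 peaks sit at the gene end in 3 and 2 of the 4 2-DG lists, those of Map1lc3b lie 9690 to 10282 bp away, and those of Tfeb fall at 3 places.

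Set beside the known ATF4 targets, which were chosen with earlier results of these data known, the end peaks of autophagy genes were low. The median fold of the known targets' highest end peaks was 52.4, 37.7, 18.3 and 23.4 in 2-DG replicates 1 to 4, at median percentiles of 99.5, 98.8, 98.0 and 98.0. The lowest known target in each list had a fold of 15.2, 12.8, 4.40 and 7.30. Becn1, at 8.97 and 7.47, was below every known target in replicates 1 and 2. In replicate 3 the end peak of Atg7 (4.40) had the fold of the lowest known target, Cebpb, and that of Becn1 (3.91) was below it. Over both windows, 20, 5, 10 and 5 peaks were called at autophagy genes in 2-DG replicates 1 to 4 and 2, 3, 6 and 6 in the control replicates. Their median fold was 4.49, 4.62, 4.16 and 4.65 in the 2-DG lists, where the median of all peaks of the same list was 4.33, 4.62, 4.89 and 4.65. In the control lists it was 4.00, 5.50, 4.44 and 3.89, beside 4.36, 4.40, 4.68 and 4.24. None of these peaks reached the 90th percentile of its list.

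**Figure D3:**
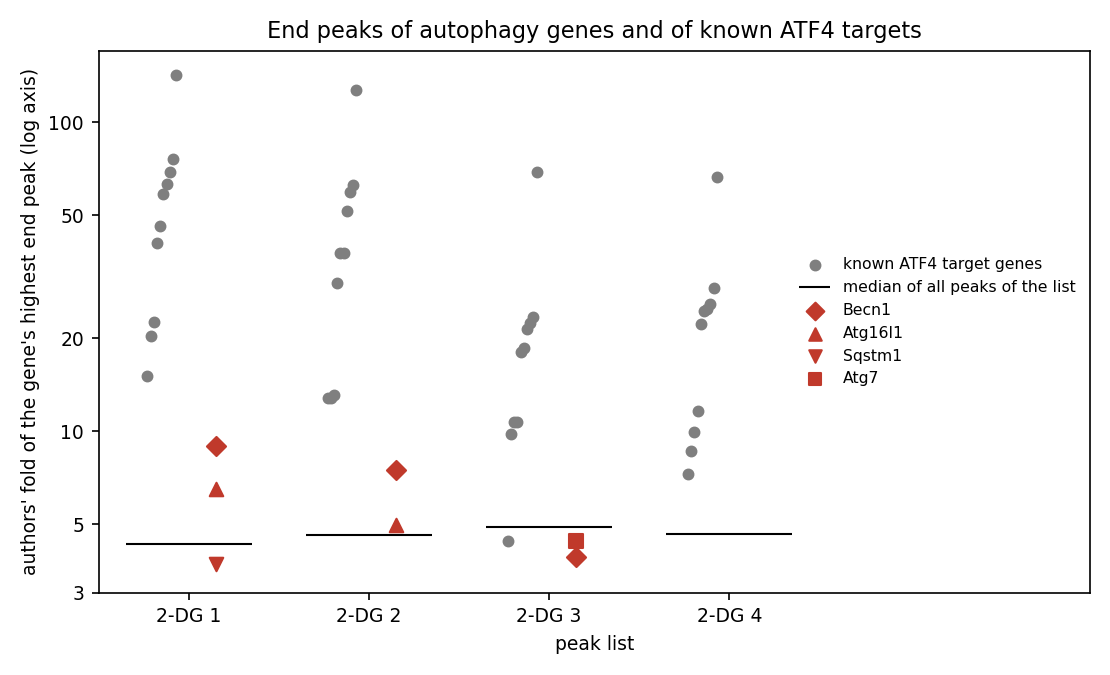
The authors' fold of the highest end peak of a gene (y, log axis) in each 2-DG list (x), for 10 known ATF4 targets (grey) and for the autophagy genes with one (red); black lines mark the median fold of all peaks of the list. Becn1 and Atg16l1 lie above that median and below every known target in replicates 1 and 2, and 2-DG replicate 4 has no autophagy gene.

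In the wide window, 15, 5, 6 and 5 of the 32 genes had a peak in 2-DG replicates 1 to 4 (7.75 ± 4.86, SD, n = 4 lists) and 2, 3, 5 and 5 in the control replicates (3.75 ± 1.5). The difference of 4.0 genes was smaller than the spread of the 2-DG lists, and it was 1.58 without 2-DG replicate 1, the longest list, and 1.25 when each list was reduced to its 3461 top peaks. The end-peak difference of 1.75 genes was then 1.33 and 1.0. Over all genes the shares were 33.1%, 19.4%, 17.2% and 15.2% in the 2-DG lists and 8.95%, 10.1%, 20.1% and 16.8% in the control lists, against 46.9%, 15.6%, 18.8% and 15.6% and 6.25%, 9.38%, 15.6% and 15.6% for the autophagy genes. Autophagy genes are long, with a median of 36204 bp against 17329 bp for all genes, and 18 of the 32 are among the longest genes (the long class when all genes are divided into 3 length classes of equal size). At least 1 of the 8 lists had a wide-window peak for 21 of the 32 genes (65.6%), beside 55.7% of all genes and 74.3% of the long class, where 15 of the 18 did.

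**Figure D4:**
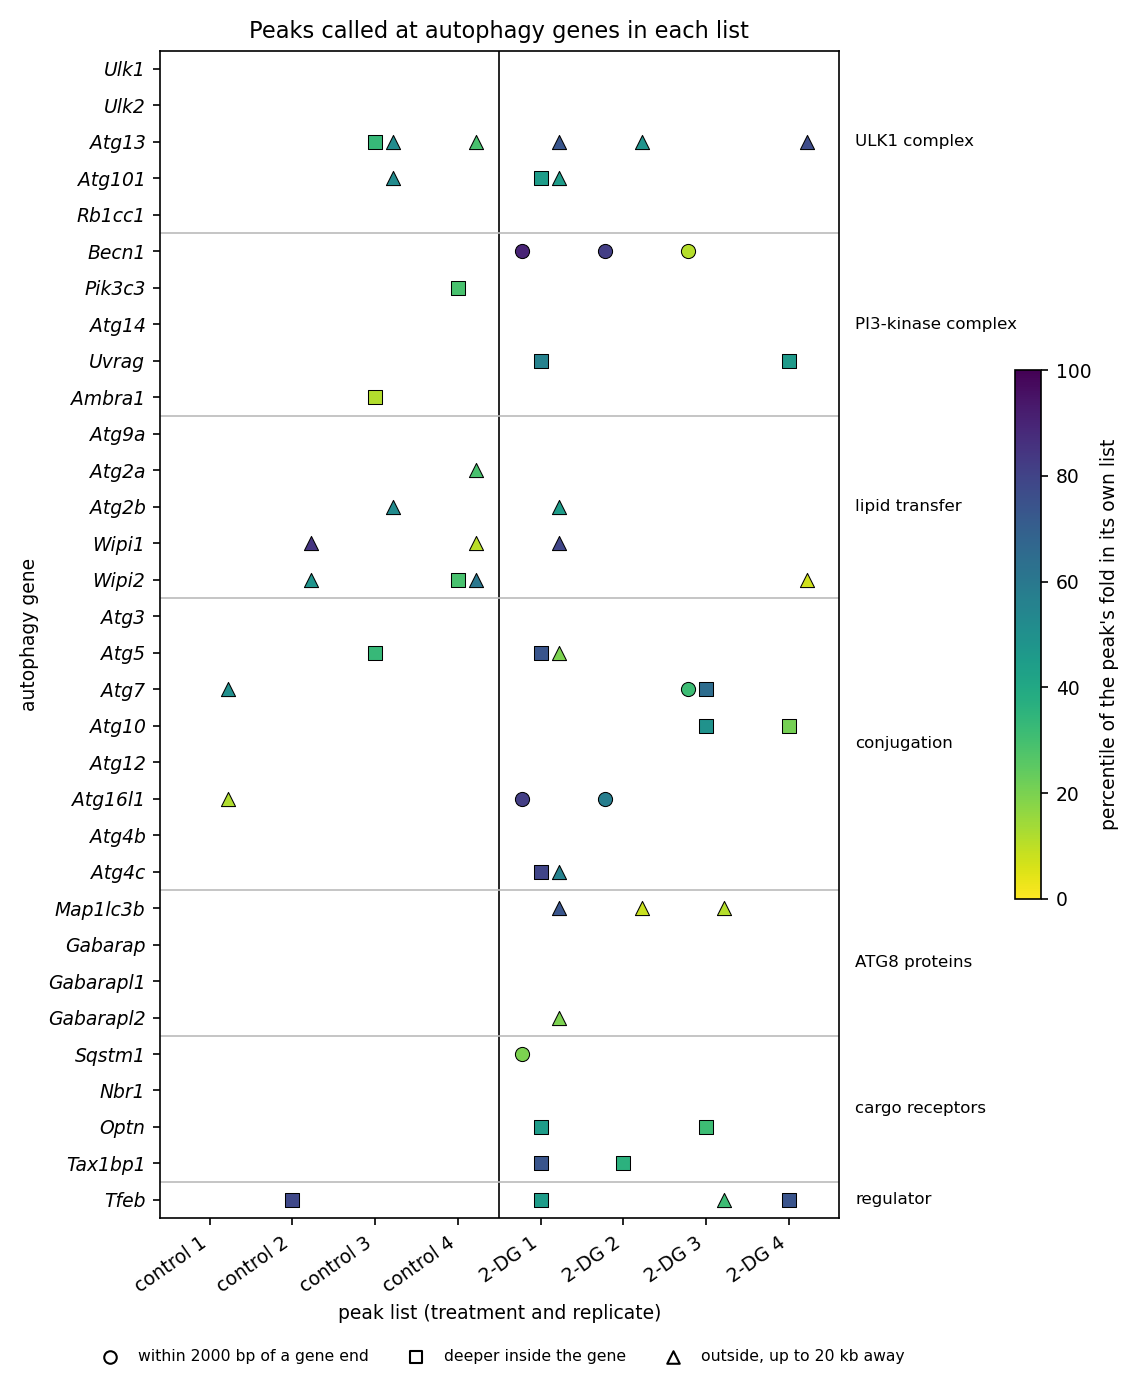
Peaks at the 32 autophagy genes (rows, grouped by role) in the 8 lists (columns): circles are end peaks, squares deeper inside the gene, triangles outside up to 20 kb away, and colour gives the percentile of the highest fold of that kind in its list. Circles stand in 2-DG replicates 1 to 3 alone, at Becn1, Atg16l1, Sqstm1 and Atg7, and 2-DG replicate 1 holds peaks at 15 genes.

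By treatment, 9 genes (28.1%) had wide-window peaks in 2-DG lists and in no control list, beside 20.2% of all genes. They were Becn1, Map1lc3b, Sqstm1, Optn, Tax1bp1, Uvrag, Atg10, Atg4c and Gabarapl2. Ambra1, Atg2a and Pik3c3, 3 genes (9.38%), had them in control lists alone, beside 11.5% of all genes. A further 9 (28.1%, beside 24% of all genes) had them in both, namely Atg101, Atg13, Atg16l1, Atg2b, Atg5, Atg7, Tfeb, Wipi1 and Wipi2. In the long class 8 of 18 autophagy genes (44.4%) did, beside 40.1% of all genes of that class. Peaks in at least 3 of 4 2-DG lists and no control list were found for Becn1 and Map1lc3b, 2 of 32 (6.25%), beside 3.29% of all genes. By length class that background was 1.96%, 3.15% and 4.77% for short, middle and long genes, and Map1lc3b is in the short class, Becn1 in the middle one. None had them in each of the 2-DG lists with no control list, as 1.53% of all genes did. Peaks in at least 3 of 4 2-DG lists whatever the controls held were found for these and for Atg13 and Tfeb, 4 genes (12.5%), beside 12.2% of all genes. No member had peaks in at least 3 control lists and no 2-DG list, as 0.194% of all genes did. No gene of the 21631 passed an adjusted 0.05 in this window, and 334 genes, 0 of them autophagy genes, had an unadjusted exact p under 0.05.

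Map1lc3b encodes LC3B, the ATG8 protein most used to mark autophagosomes. It lies at chr8:121590438-121598760, and 2-DG replicates 1, 2 and 3 shared a region upstream of it (chr8:121580623-121580851, 229 bp). The folds were 5.57, 3.56 and 3.91, at percentiles 73.7, 8.26 and 11.1, and no peak was called in 2-DG replicate 4 or in the control lists. The values of replicates 2 and 3 were the lowest folds in their lists. The summits lay 9690 to 9727 bp upstream of the Map1lc3b start but 1847 to 1884 bp from an end of Fbxo31, the nearest gene, so the peaks cannot be assigned to Map1lc3b by distance. Replicate 3 held another peak there, 10282 bp upstream of Map1lc3b and 1292 bp from Fbxo31, with a fold of 3.91. Fisher's exact p was 0.143 (adjusted p = 1), and counting only peaks nearest to a gene's own end left Map1lc3b with 0.

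Tfeb encodes the transcription factor that drives lysosome and autophagy genes. It lies at chr17:47737037-47792416 and had wide-window peaks in 2-DG replicates 1, 3 and 4 and in control replicate 2 (exact p = 0.486, adjusted p = 1). The lists did not share 1 site. A region inside the gene (chr17:47761639-47762088), 24694 to 24965 bp from its start, had folds of 4.33 in 2-DG replicate 1, 5.97 in 2-DG replicate 4 and 5.50 in control replicate 2. This region thus had a peak in both treatments. 2-DG replicate 1 had another peak 9034 bp inside the gene (fold 4.02), and the peak of 2-DG replicate 3 (fold 4.40) lay 5787 bp beyond the 3′ end.

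Atg13 encodes a regulatory subunit of the ULK1 complex. The region that brought it into the count (chr2:91664321-91665053) is inside Arhgap1, 9774 to 10222 bp outside Atg13. Folds there were 5.57, 4.62 and 6.30 in 2-DG replicates 1, 2 and 4 and 4.68 and 3.89 in control replicates 3 and 4, so both treatments had it (exact p = 1). Control replicate 3 also had a peak inside Atg13 itself, with a fold of 4.21. With the outer distance at 5 kb, or with only the nearest gene taken, Atg13 had a peak in 1 of 4 control lists and no 2-DG list, the opposite direction to the wide window.

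Among the initiation genes, 10 in all, peaks were called in 9 of 40 gene-list pairs after 2-DG (a pair is 1 gene in 1 list) and in 5 of 40 in the controls, 22.5% and 12.5%. Over all genes the share of pairs was 21.2% after 2-DG and 14.0% in the controls, so the initiation genes were near that background. It is not matched for gene length, and the median was 48864 bp for the initiation genes against 17329 bp for all genes. The ULK1 complex gave 20% and 15%. Its kinases Ulk1 and Ulk2 and the scaffold Rb1cc1 had no peak in any of the 8 lists, and Atg101, a partner of Atg13, had 2 peaks in 2-DG replicate 1 (4.33 each) and 1 in control replicate 3 (4.68, nearest to Nr4a1). The PI3-kinase complex gave 25% and 10%, with 3 of its 5 pairs after 2-DG from Becn1. Uvrag, a Beclin 1 partner, had peaks in 2-DG replicates 1 (4.64) and 4 (4.65) at different places inside the gene. The lipid kinase gene Pik3c3 had 1 peak in control replicate 4 (3.89), Ambra1, a Beclin 1 regulator, 1 in control replicate 3 (3.74), and Atg14 none.

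The conjugation genes, 8 in all, had peaks in 7 of 32 pairs after 2-DG (21.9%) and 3 of 32 in the controls (9.38%), beside 21.2% and 14.0% over all genes. That background is again not matched for length, with a median of 66200 bp for the conjugation genes against 17329 bp for all genes. Atg5, which joins ATG12 in the conjugation enzyme, had a peak inside the gene in 2-DG replicate 1 (5.57), another 15153 bp beyond its 3′ end in the same list (3.71), and one inside the gene in control replicate 3 (4.21). These peaks lay 50107, 111130 and 62990 bp downstream of the gene start, far from the cyclic AMP response element printed above. Atg10, the enzyme that passes on ATG12, had peaks in 2-DG replicates 3 (4.89) and 4 (3.98) at different places inside the gene. Atg4c, a protease that processes ATG8 proteins, had 2 in 2-DG replicate 1 (6.19 and 4.64). Atg3, Atg12 and Atg4b had no peak in the 8 lists.

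The cargo receptors had peaks in 5 of 16 pairs after 2-DG (31.3%) and in 0 of 16 in the controls, beside 21.2% and 14.0% over all genes. Without 2-DG replicate 1 their 2-DG share was 16.7%, the same as for the initiation genes and the conjugation genes, with all genes at 17.3%. Tax1bp1 had 1 region inside the gene in 2-DG replicates 1 (5.57) and 2 (4.27), with summits 4655 and 4647 bp from its 3′ end. Optn had peaks inside the gene at 3 separate places, 1 in 2-DG replicate 1 (4.33) and 2 in replicate 3 (4.40 and 3.91). Nbr1 had none in the 8 lists. The ATG8 genes had 4 of 16 pairs after 2-DG (25%, beside 21.2% over all genes) and 0 of 16 in the controls (14.0% over all genes). Of the 4, 3 were Map1lc3b and 1 was Gabarapl2, whose peak in 2-DG replicate 1 (3.71) was inside Tmem231. Gabarap and Gabarapl1 had none. The difference between role groups was not tested, and each rests on a few genes.

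Lipid-transfer genes were the group with a lower share after 2-DG, 3 of 20 pairs (15%), than in the controls, 6 of 20 (30%), beside 21.2% and 14.0% over all genes. Wipi1, which binds the phosphorylated lipid, had a region 14214 to 14228 bp upstream with folds of 6.19 in 2-DG replicate 1 and 6.23 in control replicate 2. Its peak in control replicate 4 (3.54) lay inside Arsg, the nearest gene. Wipi2, its relative that recruits Atg16l1, had peaks in control replicates 2 (4.40) and 4 (4.60 and 3.89) and in 2-DG replicate 4 (3.65). Of these, the peak of 3.89 lay inside Wipi2, and the others lay outside it and nearest to Slc29a4. Atg2b, a lipid transfer protein gene, had 1 peak in 2-DG replicate 1 (4.33) and 1 in control replicate 3 (4.68), nearest to other genes. Its relative Atg2a had 1 in control replicate 4 (3.89), 158 bp from an end of Gpha2. Atg9a, the membrane protein that seeds the phagophore, had none in the 8 lists.

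**Figure D5:**
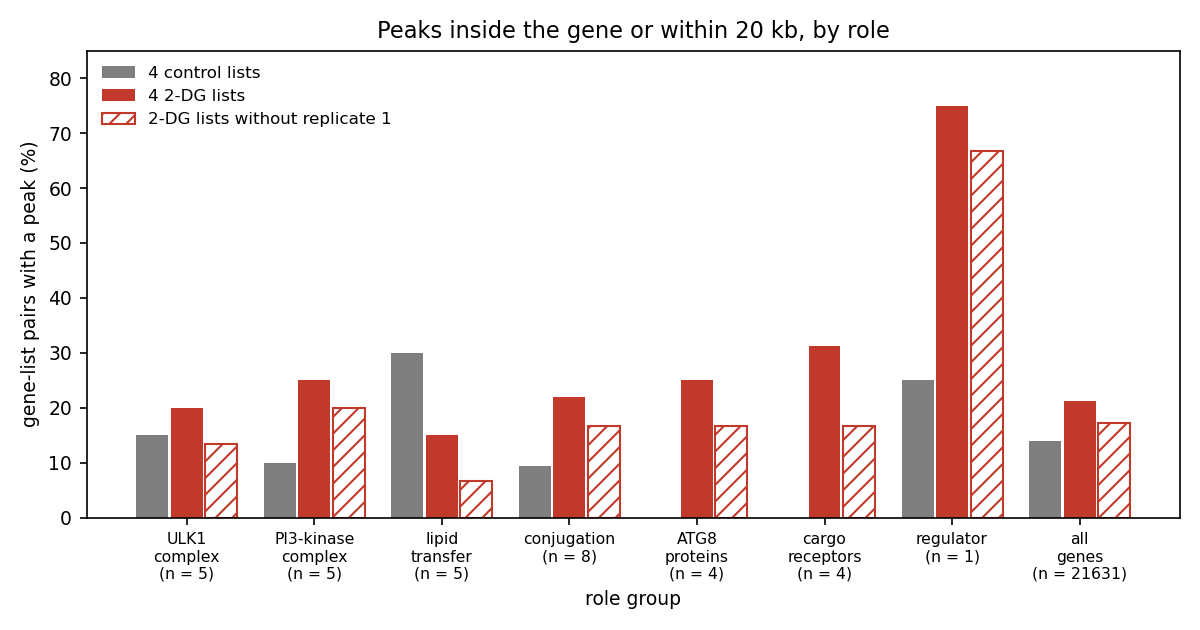
Percent of gene-list pairs with a peak in the wide window (y) by role group (x, n genes), for the 4 control lists (grey), the 4 2-DG lists (red) and the 2-DG lists without replicate 1 (hatched). Initiation is drawn as its ULK1 and PI3-kinase complexes; cargo receptors reached 31.3% after 2-DG and 16.7% without replicate 1, and lipid-transfer genes were lower after 2-DG (15%) than in the controls (30%).

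The 57 peaks of the 32 genes merged into 43 regions with a median width of 153 bp. Of these, 35 (81.4%) were found in 1 list, beside 73.6% of the regions over all peaks of the 8 lists. By treatment, 28 (65.1%) were in 2-DG lists alone, 12 (27.9%) in control lists alone and 3 (6.98%) in both. Of all 35717 regions that the peaks of the 8 lists merged into, 52.2% were in 2-DG lists alone, 33.7% in control lists alone and 14.1% in both. The 28 regions included 13 from 2-DG replicate 1 alone. Over all peaks, 18647 regions were in 2-DG lists alone, and 8031 of these came from that list alone. Without that list 15 of 30 regions were in 2-DG lists alone, beside 38.5% of all regions. End regions numbered 5, all in 2-DG lists, while 20 lay deeper inside a gene and 18 outside. The gene in question had the nearest end for 31 of the 43 regions, but for 6 of the 18 outside. The regions present in at least 3 of the 4 2-DG lists were 3 in number, at Becn1, upstream of Map1lc3b and beside Atg13. The genes with no peak in either window in the 8 lists were 11: Ulk1, Ulk2, Rb1cc1, Atg14, Atg9a, Atg3, Atg12, Atg4b, Gabarap, Gabarapl1 and Nbr1.

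Of 42 other autophagy and lysosome genes, 0 had end peaks in 3 or more 2-DG lists with no control list, beside 1.13% of all genes. End peaks in 2-DG lists and no control list were found for 4 of them (9.52%), beside 6.17% of all genes. These were Rab7, a GTPase of late endosomes (7.73 and 6.05 in 2-DG replicates 1 and 2, 42 and 33 bp from its end), Tmem41b, a lipid scramblase gene (4.02 and 4.98), Tecpr1 and Ctsd in 1 list each. In the wide window 4 of the 42 (9.52%, beside 3.29% of all genes) met the rule of at least 3 of 4 2-DG lists and no control list, namely Mitf, Vmp1, Rubcn and Plekhm1, and 0 met the reverse. Mitf, a relative of Tfeb, had a region inside the gene with folds of 23.5, 14.9, 4.89 and 8.96 in 2-DG replicates 1 to 4, at percentiles 98.0, 94.6, 49.5 and 89.2. Vmp1, which encodes a scramblase of early autophagosomes, had a region outside the gene with folds of 29.7, 8.18, 5.38 and 7.96. Its summits lay inside Ptrh2, 837 to 877 bp from an end of that gene and 7744 to 7784 bp upstream of Vmp1. The Mitf and Vmp1 regions were thus found in 4 of 4 2-DG lists, as no region of the 32 genes was. Rubcn, a Beclin 1 complex inhibitor, had folds of 5.88, 5.69 and 4.31 in 2-DG replicates 1, 2 and 4, at a region nearest to Smbd1. Plekhm1, a lysosome adaptor, had peaks in 2-DG replicates 1 (5.57), 2 (6.76) and 3 (3.91), the last at another place. Bnip3, a mitochondrial receptor gene, had peaks in all 4 lists after 2-DG and in 2 control lists. Atg4a and Fyco1 had them in 3 lists after 2-DG and in 2 and 1 control lists.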

How the data were processed

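ATF4 immunoprecipitations had peak lists for 10 of 18 samples. The other 8 are inputs and did not enter. Reads were processed with BWA, Picard and MACS2, among others, on mm10, with DiffBind also named and no version given, per the submitters' processing notes. The authors' deposited lists hold a fold enrichment (a ratio) for each summit, its p and q as -log10, and a score made from the q. The lowest -log10 q in the 8 compared deposited lists was 1.32 to 1.77. The values move in steps, so this spread does not show that the cutoffs differed. Each list was called on 1 sample. No read counts were used, so depth is unknown. Per the labels, the extraction was of RNA, and steps for chromatin are not stated there.

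Groups came from titles that match the description. The 4 samples (2 with lists) whose title and description disagree were left out. Replicates were numbered in accession order and pair nothing. Peaks were joined to RefSeq gene ends (GRCm38.p6), overlap being at least 1 bp. Presence in 4 against 4 lists was tested by two-sided Fisher's exact test per gene, adjusted by the Benjamini-Hochberg method over 21631 genes (Python 3.11.15, scipy 1.17.1, pandas 2.3.3). Counts over the members were not tested. Named in full are members with an end peak in any list or a wide-window peak in 3 or more lists of 1 treatment, and other pathway genes at that same level. Members and gene lists were chosen with earlier results of these data known. The code was tested on simulated data. Alternatives were a minimum -log10 q (2, 5) or fold (5), the 3461 top peaks per list, other widths (500 and 5000 bp at ends, 5 and 50 kb outside), other overlap rules, the nearest gene, leaving out each list, and adding the 2 conflicting lists. Region counts without 2-DG replicate 1 were added after seeing the data.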

Additional observations from a re-analysis of the deposited data

Results flagged for a closer look

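2-DG replicate 1 stood apart from the other 3 lists of its treatment in 3 measures. It held 15240 peaks, it had wide-window peaks at 15 of the 32 autophagy genes, and at 8 genes it had peaks outside the gene up to 20 kb away. In each case the gap to the next list exceeded Dixon's 95% critical value for 4 samples. Of 22 sets of 4 lists screened, 3 were marked in this way, and chance marks about 1 in 20. The 3 marks are counts from the same list and not independent, so they cannot be set against that rate as separate events.

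The 2 lists whose title and description name different treatments entered no comparison, and their peaks at autophagy genes are given as values. One, with a control title and a 2-DG description, had wide-window peaks at 6 of the 32 genes (18.8%, beside 10.8% of all genes). The other, with a 2-DG title and a control description, had them at 8 (25%, beside 20.7% of all genes), with end peaks at 2 (6.25%, beside 2.97% of all genes), Becn1 (fold 5.21, percentile 76.7, 36 bp outside the same gene end as above) and Ulk1 (fold 3.82, 1766 bp beyond its 3′ end). In the latter all 10 known ATF4 targets had an end peak, and in the former 0 did.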

How the results depend on the processing

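The per-list differences, 1.75 genes for end peaks and 4.0 for the wide window, kept their sign and moved by less than 1 SD under all 19 alternatives (0.75 to 2.5 and 1.25 to 4.75, and 1.33 to 2.33 and 1.58 to 4.92 with 1 list left out). The count of members with end peaks in at least 3 of 4 2-DG lists and no control list, 1 as reported, was 0 with -log10 q of at least 2 or 5, a minimum fold of 5, the 3461 top peaks of each list or both conflicting lists added by description, and 0 to 1 with 1 list left out. The share of all genes then stood at 1.05%, 0.86%, 0.846%, 0.818% and 0.074%, and at 0.578% to 1.35% with 1 list left out. The wide-window count, 2 as reported, was 0 under those same 5 alternatives, with all genes at 3.88%, 3.19%, 3.0%, 2.65% and 0.328%. It was 1 with an outer distance of 5 kb or only the nearest gene's end, and 0 to 3 with 1 list left out. The share of all genes at these settings is not given here. The wide-window count was 0 without 2-DG replicate 1, 2 or 3, where a peak was needed in all 3 remaining lists. Becn1 and Map1lc3b had their peaks in those 3 lists, so that 0 was fixed beforehand. The end-peak count of 0 without any of those lists was fixed in the same way. The count was 3 without control replicate 2. The minimum q, minimum fold and top-peak settings drop the low peak of replicate 3 at Becn1 and those of replicates 2 and 3 upstream of Map1lc3b, and the setting by description counts a list with a Becn1 peak as control. Atg13 turned from a difference in shares of lists of 0.25 to -0.25 with an outer distance of 5 kb and to -0.25 with only the nearest gene's end, since its shared region lies farther out and nearest to Arhgap1. No paired analysis was possible because the labels give no replicate numbers that the treatments share. With no read depth, no limit of detection could be set.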
